A study of Mus musculus with 21 samples.

Results

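Voltage-gated potassium channels open when a neuron depolarizes and let potassium leave the cell, which ends action potentials and sets how readily the next one follows. The Kv1 (Shaker, Kcna) genes encode pore subunits that assemble in groups of mixed members and are found along axons and at their terminals. The neuronal Kv7 (KCNQ) genes, Kcnq3 and Kcnq5 among them, encode subunits of the M-current, a slow, non-inactivating current that holds neurons back from repetitive firing. Expression of 8 of these genes, Kcna1 to Kcna6, Kcnq3 and Kcnq5, was followed in primary cortical neurons, taken by gene symbol from 22040 genes listed in 4 deposited tables. All 8 were listed in each table.

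Cortical cells were taken from newborn mice, either WT or with the hTau P301S transgene, whose prion promoter drives a human tau that forms tangles (Tau neurons). AraC was added to remove dividing glia, Tau neurons were seeded on day 7 with pre-formed tau fibrils and kept 18 days more, and each culture then received AdipoRon, a small-molecule activator of adiponectin receptors, or its vehicle DMSO for 24 h. The 21 cultures of polyA RNA sequencing fell into 4 groups, with 6 cultures of WT neurons given AdipoRon and 5 in each other group, the Tau and WT neurons given DMSO and the Tau neurons given AdipoRon. AdipoRon was given at 10 μM by the sample tags and the study's methods, and at 10 mM by the protocol text of the labels. The labels and the study's methods describe fibril seeding for transgenic neurons only, while its results text can be read as seeding of both genotypes. If only Tau neurons were seeded, genotype and fibrils cannot be told apart in a comparison of Tau with WT cultures.

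Each table pools 2 of the 4 groups and gives 1 mean level per gene over those cultures, the authors' log2 CPM, a read count scaled to the size of its library. The levels below are therefore those of all DMSO cultures, all AdipoRon cultures, all Tau cultures and all WT cultures. The spread between cultures cannot be read from such means, so no difference below carries an error, an n or a test, and none is shown to exceed the variation among replicates. DMSO and AdipoRon cultures share no sample, though the study states that each animal gave cells to each treatment, and neither do Tau and WT cultures, but the 2 pairs divide the same 21 cultures. In bulk RNA, fewer cells of a type and less of a transcript per cell cannot be told apart.

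The cultures carried neuronal and glial transcripts. Levels of the neuronal markers Tubb3, Rbfox3, Map2, Slc17a7 and Gad1 summed to 2239 to 2464 CPM across the 4 pools, lowest in AdipoRon and highest in DMSO cultures. Between these 2 pools they differed by -0.13, -0.15, -0.20, 0.11 and -0.28 on the log2 scale, in that order. Their part in the levels of the channel genes was not tested. The astrocyte markers Gfap, Aqp4 and Slc1a3 summed to 3058 to 3291 CPM, oligodendrocyte markers (Mbp, Mog) to 238 to 325 CPM and microglial markers (Cx3cr1, C1qa, Csf1r) to 141 to 288 CPM. None of these 13 markers differed 2-fold between AdipoRon and DMSO cultures, where 1.75% of genes listed for both were at least 2-fold lower and 0.675% at least 2-fold higher. In Tau cultures 2 microglial markers were at least 2-fold lower than in WT cultures, as were 0.508% of genes listed for both. RNA in the pools thus came from more than neurons, and the level of a channel gene cannot be assigned to neurons alone.

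The sequences just upstream of the annotated starts of Kcna4 and Kcnq5 are shown because these were the 2 members at least 2-fold lower in AdipoRon than in DMSO cultures. They are the 250 bases before the start in RefSeq on GRCm38.p6, written 5′ to 3′ on the gene's strand, and RefSeq gives Kcnq5 a pair of starts. Capitals mark a GC box (GGGCGG on either strand).
Kcna4, chr2:107290339-107290588, plus strand: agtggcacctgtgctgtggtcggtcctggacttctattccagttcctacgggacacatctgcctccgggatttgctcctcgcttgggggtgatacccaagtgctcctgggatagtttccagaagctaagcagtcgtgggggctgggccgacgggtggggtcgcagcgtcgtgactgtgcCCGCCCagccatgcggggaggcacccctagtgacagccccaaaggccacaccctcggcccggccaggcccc
Kcnq5, chr1:21962651-21962900, minus strand: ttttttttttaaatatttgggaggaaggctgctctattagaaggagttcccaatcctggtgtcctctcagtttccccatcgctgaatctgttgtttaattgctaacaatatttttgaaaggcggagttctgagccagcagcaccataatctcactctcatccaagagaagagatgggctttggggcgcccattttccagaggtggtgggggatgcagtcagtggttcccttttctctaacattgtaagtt
Kcnq5, chr1:21961943-21962192, minus strand: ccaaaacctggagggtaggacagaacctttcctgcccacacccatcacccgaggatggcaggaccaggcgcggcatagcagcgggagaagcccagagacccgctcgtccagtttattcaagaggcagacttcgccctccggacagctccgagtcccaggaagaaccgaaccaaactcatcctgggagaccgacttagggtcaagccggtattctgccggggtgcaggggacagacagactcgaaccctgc
The Kcna4 window held 1 GC box, which began 71 bases before the start. Of 32851 RefSeq windows of this length, 32.7% held at least 1. No match to the cyclic AMP response element TGACGTCA, the AP-1 motif TGANTCA or TATAAA was found in these 3 windows, searched on both strands. The shares of all windows that held them were 1.55%, 6.75% and 12.4%. GC content was 65.2% upstream of Kcna4 and 44.4% and 60.8% upstream of Kcnq5, against a median of 52.4% over all windows. Windows for 6 of the 8 members were matched by symbol, and of the others only that of Kcna3 held any of these motifs, with 2 GC boxes.

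In DMSO cultures, Kcna1 and Kcna2 were the most abundant members before any correction for length. Kcna1 encodes Kv1.1 and Kcna2 encodes Kv1.2, the delayed rectifier subunits of axons. Kcna1 was at 8.36 log2 CPM (329 CPM) and Kcna2 at 8.30 (316 CPM). Kcnq3, which encodes the M-current subunit Kv7.3, was at 8.01 (257 CPM). These 3 genes lay at or above the 96.9th percentile of the 19811 genes listed for DMSO cultures.

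Kcna6, encoding Kv1.6, was at 6.07 log2 CPM in DMSO cultures, and Kcnq5, encoding the M-current subunit Kv7.5, at 5.88. Kcna4 encodes Kv1.4, the member of this family whose current inactivates fast, and stood at 4.27. Kcna3, encoding Kv1.3, which is also well known from microglia and lymphocytes, was at 3.14. Kcna5, encoding Kv1.5, was the lowest at 2.76 log2 CPM (6.76 CPM).

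**Figure D1:**
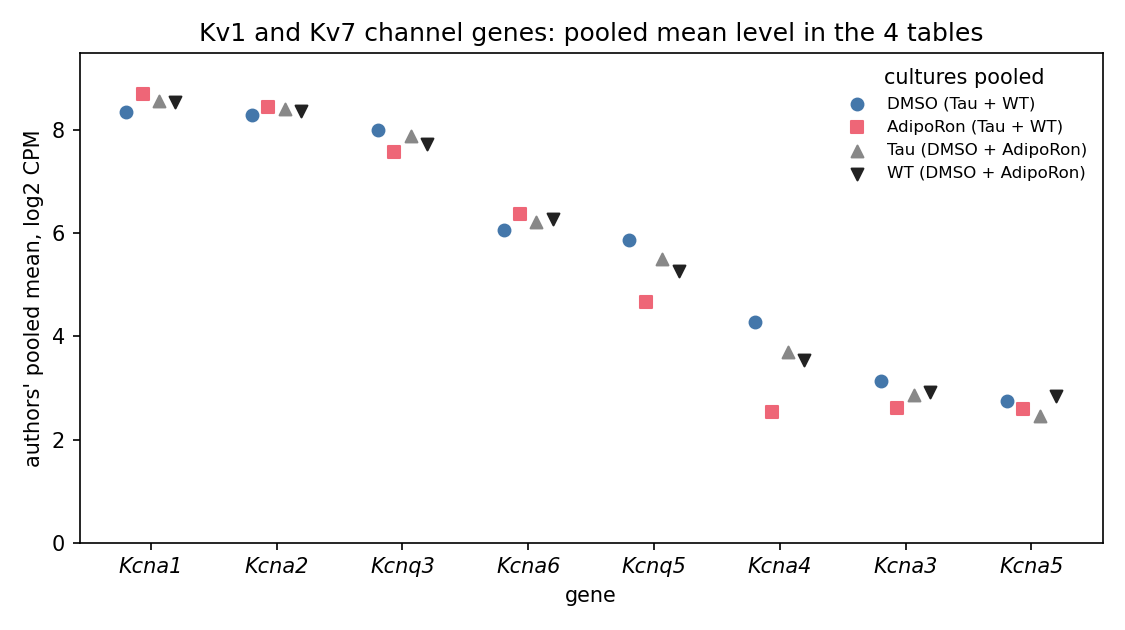
Pooled mean level of each channel gene (log2 CPM, vertical axis) in the 4 pools of cultures, 1 point per pool, with genes ordered by their level in DMSO cultures. The point for AdipoRon cultures lies far below the others for Kcna4 (2.54) and Kcnq5 (4.68). The points for Tau and WT cultures lie furthest apart for Kcna5 (2.45 and 2.85) and closer together for the other genes.

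Levels of different genes were compared per kilobase of the canonical GENCODE transcript. On this scale Kcna1 led in DMSO cultures with 81.6 CPM per kb, ahead of Kcna2 with 27.3 and Kcnq3 with 21.7. Kcna6 followed with 11.5 CPM per kb and Kcnq5 with 8.95. Kcna3 (4.62 CPM per kb), Kcna4 (3.99) and Kcna5 (2.36) were the scarcest, and whether these neighbours differ beyond the spread of cultures could not be tested. With AdipoRon, Kcna1 was at 104 CPM per kb, Kcna2 at 30.1 and Kcnq3 at 16.3, Kcnq5 was at 3.90 and Kcna4 at 1.20. The summed per-kilobase level of the 6 Kv1 genes was 131 CPM per kb in DMSO and 155 in AdipoRon cultures, and that of Kcnq3 and Kcnq5 was 30.7 and 20.2. Of the summed per-kilobase level of the 6 Kv1 genes, Kcna1 made up 62.1% in DMSO and 67.1% in AdipoRon cultures, and Kcna4 made up 3.03% and 0.773%. Of the 2 Kv7 genes, Kcnq5 made up 29.2% of the per-kilobase sum in DMSO and 19.3% in AdipoRon cultures. The order of the first 6 genes was the same in all 4 pools, and Kcna4 and Kcna5 exchanged the last places in AdipoRon and WT cultures.

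The first comparison set AdipoRon against DMSO cultures, with both genotypes in each. Kcna4 and Kcnq5 were at least 2-fold lower with AdipoRon, and no member was 2-fold higher. Among 19693 genes listed for both pools, 1.75% were at least 2-fold lower and 0.675% at least 2-fold higher. The median difference of the 8 members was -0.29 on the log2 scale, against a median of 0.02 over all genes. Of the members 5 lay below 0 and 3 above it, where 45.0% of all shared genes lay below 0.

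Kcna4 was at 4.27 log2 CPM in DMSO, 2.54 in AdipoRon, 3.70 in Tau and 3.55 in WT cultures. The AdipoRon pool was thus the low one, and the Tau and WT pools, which each hold both treatments, lay between. From 19.3 CPM with DMSO to 5.80 CPM with AdipoRon, the difference was -1.74 on the log2 scale, a level 3.33-fold lower. In this ordering of all shared genes by difference, 94 genes, Kcna4 among them, lay at or below its value, which is 0.477% of them.

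Kcnq5 was at 5.88 log2 CPM in DMSO, 4.68 in AdipoRon, 5.49 in Tau and 5.27 in WT cultures. It was again lowest in the AdipoRon pool. Its difference between AdipoRon and DMSO cultures was -1.20 on the log2 scale, from 58.8 to 25.6 CPM, a level 2.30-fold lower. At or below this value lay 1.13% of the shared genes.

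Kcnq3 differed by less than its relative Kcnq5. Its level was 257 CPM in DMSO, 192 in AdipoRon, 237 in Tau and 213 in WT cultures, and the difference with AdipoRon was -0.42 on the log2 scale. Kcnq1, a mainly cardiac and epithelial subunit, differed by -0.10 at a level of -0.78 log2 CPM in DMSO cultures.

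The abundant Kv1 genes were not lower with AdipoRon. Kcna1 was at 329 CPM in DMSO, 418 in AdipoRon, 378 in Tau and 376 in WT cultures, 27.1% higher with AdipoRon than with DMSO (0.35 on the log2 scale). Kcna6, at 67.3 CPM in DMSO, 83.3 in AdipoRon, 74.1 in Tau and 77.1 in WT cultures, was 23.7% higher (0.31). For both genes the AdipoRon pool was the highest and the DMSO pool the lowest. Kcna2, at 316 CPM in DMSO, 349 in AdipoRon, 340 in Tau and 330 in WT cultures, was 10.5% higher (0.14), and 51.2% of all shared genes had a difference at least as far from 0. For Kcna1 and Kcna6 these shares were 20.0% and 24.0%, so differences of this size were common among genes.

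The scarce genes Kcna3 and Kcna5 were lower by less than 2-fold. Kcna3 was at 8.79 CPM in DMSO, 6.08 in AdipoRon, 7.25 in Tau and 7.55 in WT cultures, with a difference of -0.53 on the log2 scale between treatments. Kcna5 was at 6.76 CPM in DMSO and 6.06 in AdipoRon cultures, a difference of -0.16. Kcna5, Kcna1 and Kcna6 are neighbours on chromosome 6 in the RefSeq order of genes, as are Kcna3 and Kcna2 on chromosome 3, and within both clusters the differences lay on both sides of 0. Microglia can carry Kv1.3, and over the same treatments the microglial markers differed by -0.47 (Cx3cr1), 0.29 (C1qa) and -0.12 (Csf1r), and their part in the level of Kcna3 was not tested. The read counts behind these levels in each culture are not in the tables.

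**Figure D2:**
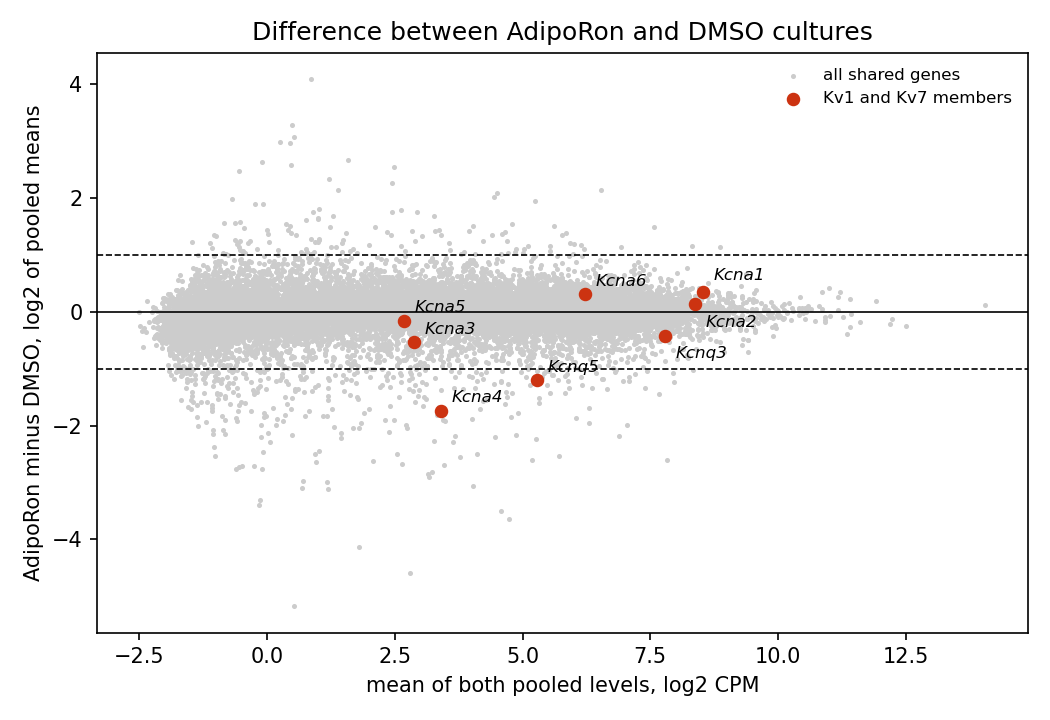
Difference between AdipoRon and DMSO cultures for each shared gene (vertical axis, log2 of pooled means) against the mean of both levels (horizontal axis, log2 CPM), with the 8 channel genes in red and dashed lines at 2-fold. Kcna4 (-1.74) and Kcnq5 (-1.20) lie below the lower line, and the other 6 lie between the lines.

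The second comparison set Tau against WT cultures, with both treatments in each. None of the 8 genes differed 2-fold, where 0.508% of 19890 shared genes were at least 2-fold lower and 0.126% at least 2-fold higher in Tau cultures. The members' median difference was 0.02 on the log2 scale, and that of all genes was 0.00.

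Kcna1, Kcna2, Kcna3 and Kcna6 differed between Tau and WT cultures by 0.00, 0.04, -0.06 and -0.06 on the log2 scale. Kcna4 was 11.4% higher in Tau cultures (0.16), Kcnq3 11.5% higher (0.16) and Kcnq5 16.6% higher (0.22). For Kcnq5, 24.4% of all shared genes had a difference at least as far from 0. The largest difference among members was that of Kcna5, at 5.47 CPM in Tau and 7.22 CPM in WT cultures, which is -0.40 on the log2 scale. The microglial markers were lower in Tau cultures as well, by -1.19 (Cx3cr1), -1.05 (C1qa) and -0.78 (Csf1r). Their part in the levels of Kcna5 (-0.40) and Kcna3 (-0.06) was not tested. WT AdipoRon had 6 cultures and the other groups 5, so AdipoRon weighs slightly more in the WT than in the Tau pool.

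Other genes of these channels came from a list of 15, of which 9 were listed for both DMSO and AdipoRon cultures. None of the 9 differed 2-fold between treatments, where 1.75% of all shared genes were at least 2-fold lower and 0.675% at least 2-fold higher. The median difference of the 9 was -0.08 on the log2 scale. Below 0 lay 6 of them and above it 3, where 45.0% of all shared genes lay below 0. The auxiliary subunit gene Kcnab1, whose product Kvβ1 confers inactivation on Kv1 channels, had the lowest value at -0.67, from 7.04 to 6.36 log2 CPM. Its relatives Kcnab2 and Kcnab3 differed by 0.11 and 0.22. Kcne4, an auxiliary subunit gene, had the highest value at 0.72, at a level of only -0.42 log2 CPM in DMSO cultures.

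Among genes for proteins that gather Kv1 channels at axons and synapses, Lgi1, a secreted protein linked to Kv1 channels, differed by -0.41 with AdipoRon, and its receptor gene Adam22 by -0.02. Cntnap2, which encodes Caspr2, differed by -0.14, and Dlg4, encoding the scaffold PSD-95, by -0.08. Between Tau and WT cultures, 10 of the 15 were listed for both, and their differences ran from -0.18 to 0.24. The highest was that of Kcne2, an auxiliary subunit gene at -1.79 log2 CPM in Tau and -2.03 in WT cultures, and the lowest that of Kcnab3. Kcna7 was listed for WT cultures only, at -2.29 log2 CPM. Kcna10, Kcne1, Kcne3 and Kcne5 were not listed under these symbols for any of the 4 pools.

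**Figure D3:**
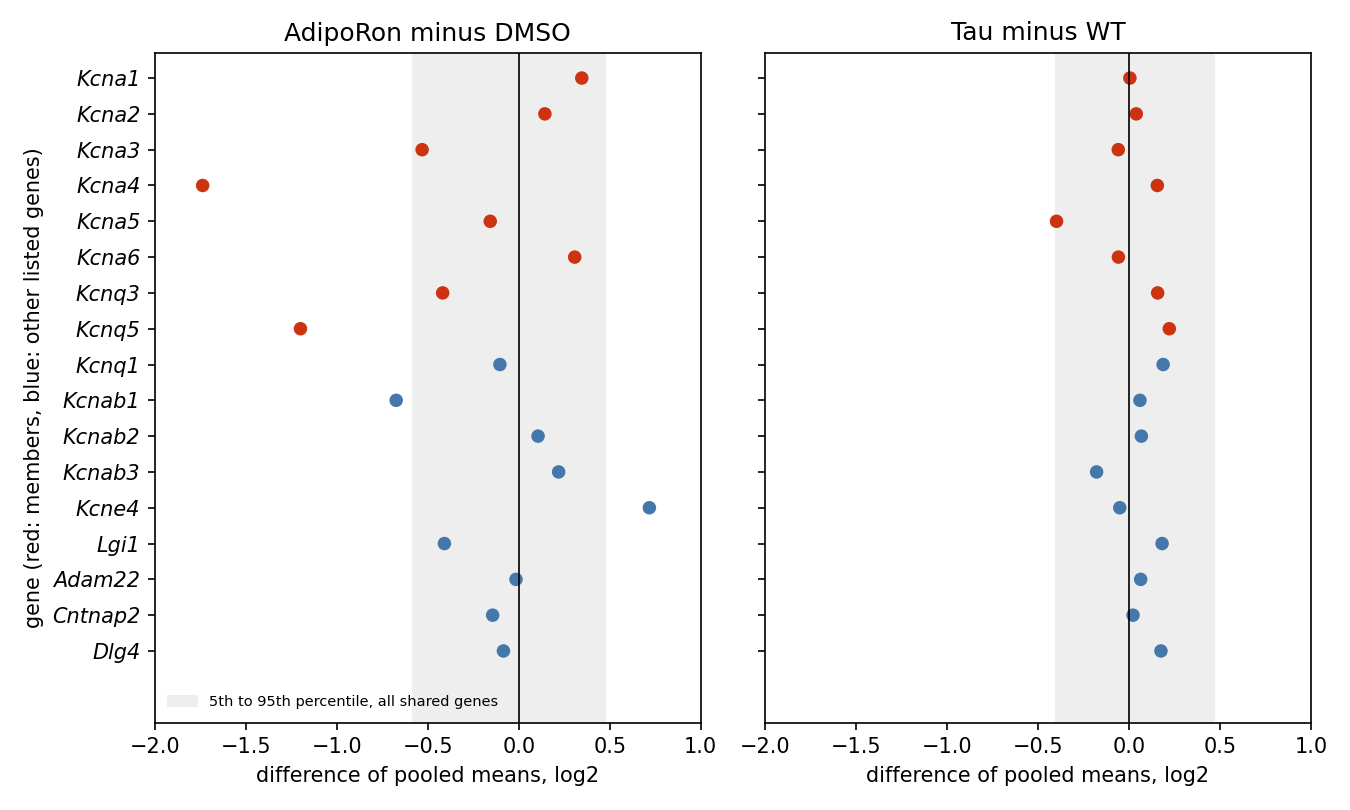
Difference of pooled means (log2, horizontal axis) for the 8 channel genes in red and 9 related genes in blue, AdipoRon minus DMSO on the left and Tau minus WT on the right, with the range from the 5th to the 95th percentile of all shared genes in grey. On the left Kcna4, Kcnq5 and Kcnab1 lie below the grey range and Kcne4 above it, and on the right every gene lies within it.

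The 4 pooled means also limit the means of the single groups. Weighted by their numbers of cultures, the DMSO and AdipoRon pools must sum to the same total as the Tau and WT pools, and over 19399 genes both sums differed by a median of -5.0e-04 on the log2 scale (SD 0.0049 across genes). Of the 4 equations 3 are independent, so the group means are not fixed, but none can be below 0. For Kcna4 this leaves 13.1 to 26.0 CPM in Tau neurons with DMSO and 0 to 12.9 CPM in Tau neurons with AdipoRon. In WT neurons the ranges were 12.8 to 25.6 CPM with DMSO and 0 to 10.7 CPM with AdipoRon. The ranges of both treatments did not overlap in either genotype. The difference between treatments nearest to 0 that they allow was -2.07 CPM in WT and -0.27 CPM in Tau neurons. The margin in Tau neurons is smaller than 0.35 CPM, by which 2 ways of combining the pools for Kcna4 disagreed, so the direction there is not secure. With both groups of a pool weighted equally instead, the allowed differences nearest to 0 were -0.82 CPM in WT and -3.48 CPM in Tau neurons, so which genotype had the narrower margin turned on the weights. Of 19399 genes, 0.464% had ranges that put AdipoRon lower in both genotypes.

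For Kcnq5 the ranges overlapped, at 33.2 to 89.8 CPM with DMSO and 0 to 56.6 CPM with AdipoRon in Tau neurons, and at 28.0 to 84.6 CPM and 0 to 47.2 CPM in WT neurons. The pooled means thus do not say in which genotype Kcnq5 was lower. The other 6 genes had overlapping ranges in both genotypes too. What the pools do give, as closely as their totals agree, is the difference between Tau neurons with AdipoRon and WT neurons with DMSO. These groups differ in genotype and treatment at once, and possibly in fibrils, so this difference cannot be assigned to any of them. It was -12.8 CPM for Kcna4, -28.0 CPM for Kcnq5 and -41.9 CPM for Kcnq3. It was 44.5 CPM for Kcna2 and 13.6 CPM for Kcna6, and above 0 for Kcna1 too. For Kcna3 and Kcna5 it was -3.15 and -2.55 CPM.

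**Figure D4:**
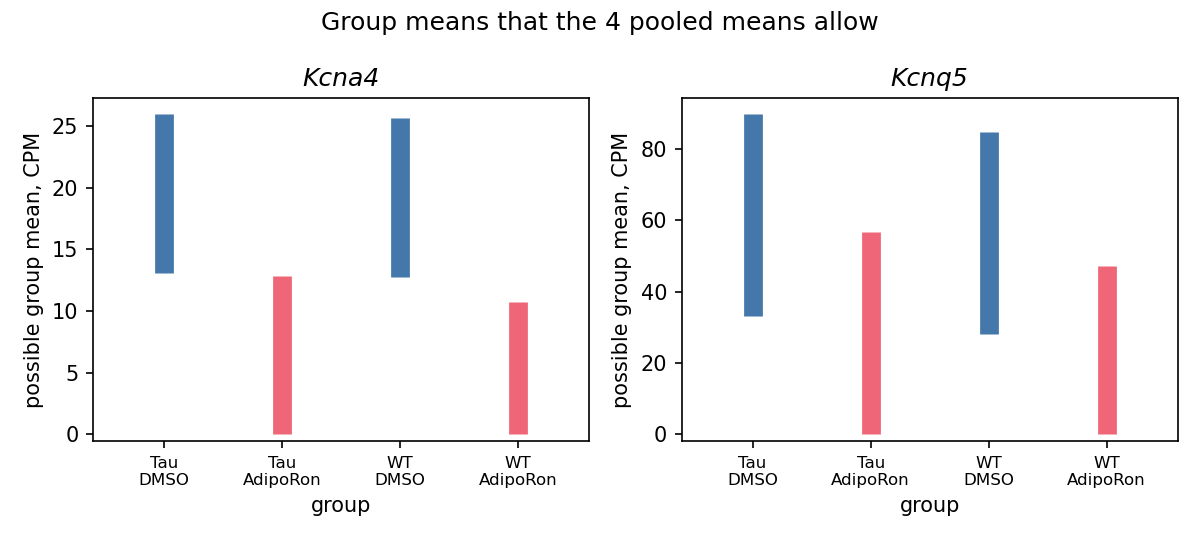
Possible mean level (CPM, vertical axis) of Kcna4 on the left and Kcnq5 on the right in each of the 4 groups, as bars from the lowest to the highest value that the pooled means allow, with DMSO in blue and AdipoRon in red. The bars are limits set by arithmetic and no error bars, and those for DMSO and AdipoRon do not overlap for Kcna4 but do for Kcnq5.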

How the data were processed

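RNA from 21 cultures in 4 groups was sequenced, and samples were grouped by title. The authors' methods name STAR for alignment to mm10, RSEM for gene counts and edgeR for their comparisons, whereas their results text names GRCm39 and their tables Rsubread. The authors deposited 1 log2 CPM value per gene and table, relative to library size, with prior count and filter not given in the sources used here. Summed on the linear scale, each table came to 1.00e+06 CPM. The tables were normalized separately, which bears on every level set across them. Other columns of the tables hold the authors' own fold changes, likelihood ratios, p-values and calls, and were not used. The tables hold no value per culture, so the count test planned could not be run. The study states an average read number over all samples, and the depth of each single culture is not given in the sources used here.

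The labels tie WT AdipoRon cultures to the table of DMSO cultures and no sample to the WT table, against the tables' names. The names were followed. With their groups, the pooled totals closed to a median of -5.0e-04 (log2), with an SD of 0.0049 across genes. With WT AdipoRon added to the DMSO table they missed by a median of 0.36. That addition counts those cultures on 1 side only, which by itself gives a miss of about this size. The 2 medians therefore cannot decide which cultures a table holds.

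Differences are log2 CPM of one pool minus that of another sharing no culture, and a 2-fold difference was counted. Ranges of group means were solved by least squares with no mean below 0 (numpy 2.4.6, pandas 2.3.3). The code was tested on simulated pools that closed exactly, so the effect of pools that do not close exactly, as here, was not tested. Transcript lengths are GENCODE vM39 (GRCm39). The text covers all 8 members, 11 of 15 related genes and 13 markers, and 3 further listed genes are not reported here. Members and lists were chosen with earlier results of these data known, and the 2-fold limit, the ranges and the alternatives other than the choice of pool were set after seeing the data.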

Additional observations from a re-analysis of the deposited data

How the results depend on the processing

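The median level of the 8 genes was 5.98 log2 CPM in DMSO cultures, 5.85 in Tau, 5.77 in WT and 5.53 in AdipoRon cultures. The counts of members at least 2-fold lower, 2 with AdipoRon and 0 in Tau cultures, were equal with a 1.5-fold limit, with differences centred on the median of all shared genes or of those over a log2 CPM of 4, and with the 19399 genes in all 4 tables. At 2-fold, 1.75% of all shared genes were lower with AdipoRon and 0.508% lower in Tau cultures. More genes can pass a 1.5-fold limit, and their share is not given here, so the equal counts cannot be set against it. Centring changed the sign of no member's difference. With both groups of a pool weighted equally, the ranges of Kcna4 still did not overlap within a genotype, but the allowed difference nearest to 0 went from -2.07 to -0.82 CPM in WT and from -0.27 to -3.48 CPM in Tau neurons. Weighted by cultures, the margin in Tau neurons was below the 0.35 CPM by which 2 ways of combining the pools disagreed. The direction in Tau neurons is therefore not secure. The order per kilobase in DMSO cultures was equal with the longest annotated transcript. No paired analysis was possible because the tables hold no value per culture, although treatments share animals according to the study. For the same reason another normalization, no filter on low counts and leaving out each replicate were not run.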
